A study of Mus musculus with 4 samples.

Results

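The proteasome genes described here are those whose symbol in the deposited tables starts with Psma, Psmb, Psmc, Psmd, Psme, Psmf or Psmg followed by a digit. The immunoproteasome subunits Psmb8, Psmb9 and Psmb10 were left out, and the transcript with the longest exon length stood for each gene. The rule found 46 of the 21506 genes. Of these, 45 reached the minimum of 1 RPKM (reads scaled to 1 kb of exon and to 1 M reads of the library) in at least 2 libraries and were tested, and Psmb11 did not. Psmc3ip meets the rule through its symbol but encodes a meiotic recombination factor, so that 44 tested genes encode proteasome subunits, regulators or assembly chaperones.

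The cells were 32Dclone3, a mouse myeloid line that depends on interleukin-3. They had been stably infected with XZ-miR-125b, a virus that carries miR-125b, or with the empty XZ control virus. Both groups grew in the same medium with serum, antibiotics and WEHI-conditioned medium as the source of interleukin-3. Each group had 2 libraries of poly(A)-enriched RNA, and each condition had been infected in separate rounds with different virus supernatants. The labels do not say which round gave which library, so p-values measure only the spread between these cultures. The promoter that drives miR-125b, and whether the lines were clones or pools, are not stated in the sources at hand.

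Proteasomes degrade proteins marked with ubiquitin. The core particle is a barrel of outer rings of alpha subunits, which gate the entrance, and inner rings of beta subunits, of which Psmb5, Psmb6 and Psmb7 carry the proteolytic sites. The regulatory particle caps the barrel, where a ring of ATPases (Psmc) unfolds the substrate and the other subunits (Psmd) bind and remove ubiquitin. The Psme proteins are alternative caps, and Psmg chaperones assist in building the core. Blood cells can replace the 3 proteolytic subunits with Psmb8, Psmb9 and Psmb10, which interferon induces.

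The reads summed over all rows were 12.6 and 11.7 M in miR-125b and 11.2 and 10.4 M in control libraries. A tested proteasome gene had between 48 and 7910 reads in a library, with a median of 1074, and Psma3 alone had under 100 in any. The hairpin row of Mir125b-1 held 4 and 4 reads in the miR-125b libraries, against 0 and 0 in the control libraries, where a count of 0 allows up to 3. Mature miR-125b is not captured by such libraries. Of 12 myeloid progenitor markers, 11 were in the tables and 10 reached 1 RPKM in every library. Kit was listed at 0 in 3 libraries and at 0.0186 RPKM in control replicate 2. The summed myeloid markers stood at 1597 and 1193 RPKM in miR-125b and 1055 and 1867 RPKM in control libraries. Erythroid and epithelial markers were at 0 in every library, and lymphoid and fibroblast markers summed to at most 0.393 and 0.322 RPKM. The first principal component (57.8% of the variance) set control replicate 2 apart from the others, at 34.1, against 0.18 for control replicate 1. The miR-125b libraries lay at -12.2 and -22.1, so both also lay below both control libraries on it. Across tested genes the difference of control replicate 2 from control replicate 1 followed transcript GC content (Spearman's rho 0.474, a description across genes). The log2 fold changes of role groups, lists and genes described below with values per library are therefore also given without control replicate 2.

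A miRNA recognises targets mainly through its seed, bases 2 to 8. The mature sequence of miR-125b (RefSeq, GRCm38.p6, chr9:41581940-41581961, plus strand) is shown with its seed in capitals. Below it stand the 4 proteasome genes whose 3′ UTR in GENCODE M21 holds the matching CTCAGGG, with the match in capitals, because a full seed match is the usual mark of a possible direct target.
miR-125b: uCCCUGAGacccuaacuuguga
Psmc1: tggcccacagtcgtcCTCAGGGAtggggag
Psmf1: ctgacaggaccagggccagtCTCAGGGAgg
Psmg3: gctggaaacagcactcaagtCTCAGGGAct
Psmb11: caggaacaccactgcctcctcCTCAGGGct
The windows lie in GRCm38 at chr12:100123193-100123222 (Psmc1, plus strand), chr2:151717442-151717471 (Psmf1, minus strand), chr5:139823778-139823807 (Psmg3, minus strand) and chr14:54627243-54627272 (Psmb11, plus strand). The matches of Psmc1, Psmf1 and Psmg3 are followed by an A and are thus 8mers, while that of Psmb11 is a 7mer. They start at bases 16, 1183, 134 and 1029 after the stop codon in the order of the lines above. Among tested proteasome genes with Psmc3ip, 3 of 45 (6.67%) held an 8mer or a 7mer match to the full seed, against 1551 of 9960 tested genes with a 3′ UTR (15.6%). All 3 were 8mers, and for 8mers alone the share was 6.67%, against 553 of 9960 tested genes (5.55%). The UTRs of these 45 genes were shorter, with a median of 296 bases, against 1141 bases over all tested genes. Shorter matches were found in Psmb1 and Psmd3 (TCAGGGA) and in Psma3 and Psmd8 (TCAGGG). The UTR searched was the longest annotated among the coding transcripts of each gene, and the deposited transcript need not hold it. In Psmb1 it had 1281 bases, against 1036 in the whole deposited transcript, and in Psma3 1952 bases, against 1418.

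The factors NRF1 (Nfe2l1) and NRF2 (Nfe2l2) are known activators of proteasome genes through the antioxidant response element. Its core TGACNNNGC was searched on both strands, as the only motif, in the RefSeq promoters (GRCm38.p6) from 250 bases before to 50 bases after each gene's start. It was present in 6 of the 38 proteasome genes with a promoter in that set (15.8%), namely Psmb5, Psmb6, Psmc6, Psmd12, Psmd9 and Psme4. The share was 17.2% of 7231 tested genes and 14.0% of all genes with a promoter, so the core was about as common in proteasome promoters as elsewhere. Windows of 3 of these promoters, on the strand of the gene and with the core in capitals, show where it lies in a pair of catalytic subunits and in the assembly chaperone Psmd9.
Psmb5: cgtgaagttgTGACGTCGCggcgttgccag
Psmb6: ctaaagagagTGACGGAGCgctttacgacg
Psmd9: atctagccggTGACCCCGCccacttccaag
These windows are chr14:54618023-54618052 (Psmb5, minus strand), chr11:70525338-70525367 (Psmb6, plus strand) and chr5:123228149-123228178 (Psmd9, plus strand), and the cores start at positions -47, -9 and -31 relative to the gene's start. A match is a description of the letters, and binding was not measured. Nfe2l1 itself had 47.6 and 53.8 RPKM in miR-125b and 38.5 and 40.3 RPKM in control libraries. Its groups did not overlap, with a log2 fold change of 0.35 ± 0.19 (SE) and an adjusted p of 0.583 in limma. Without control replicate 2 the log2 fold change of Nfe2l1 was 0.39. Nfe2l2 had 31.3 and 33.1 RPKM in miR-125b and 26.4 and 28.9 RPKM in control libraries, also without overlap. The log2 fold change of Nfe2l2 was 0.21 ± 0.18 (SE; limma adjusted p 0.706). It was 0.28 without control replicate 2.

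Proteasome genes were abundant in these cells. The median of their mean levels was 70.2 RPKM, against 12.9 RPKM over the 10309 tested genes. Proteasome genes took 0.733% and 0.690% of the reads summed over 1 row per gene in miR-125b libraries and 0.775% and 0.603% in control libraries. In these bulk samples, fewer cells of a type and less RNA per cell cannot be told apart. The most abundant were Psmb4, a structural beta subunit, Psmd4, a ubiquitin receptor of the regulatory particle, and Psma7 of the alpha ring. Psmb4 (chromosome 3, 94688246 to 94690880 in mm9, 7 exons) had 660.4 and 586.5 RPKM in miR-125b and 738.8 and 680.2 RPKM in control libraries. Psmd4 (chromosome 3, 94836627 to 94846467) had 342.3 and 354.8 RPKM in miR-125b and 352.7 and 307.0 RPKM in control libraries. Psma7 had 255.4 and 206.7 RPKM in miR-125b and 234.5 and 195.8 RPKM in control libraries. For Psmb4 both miR-125b values lay below both control values, and for the other two genes the groups overlapped. The least abundant tested members were Psmd9, Psma8 and Psma3.

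**Figure D1:**
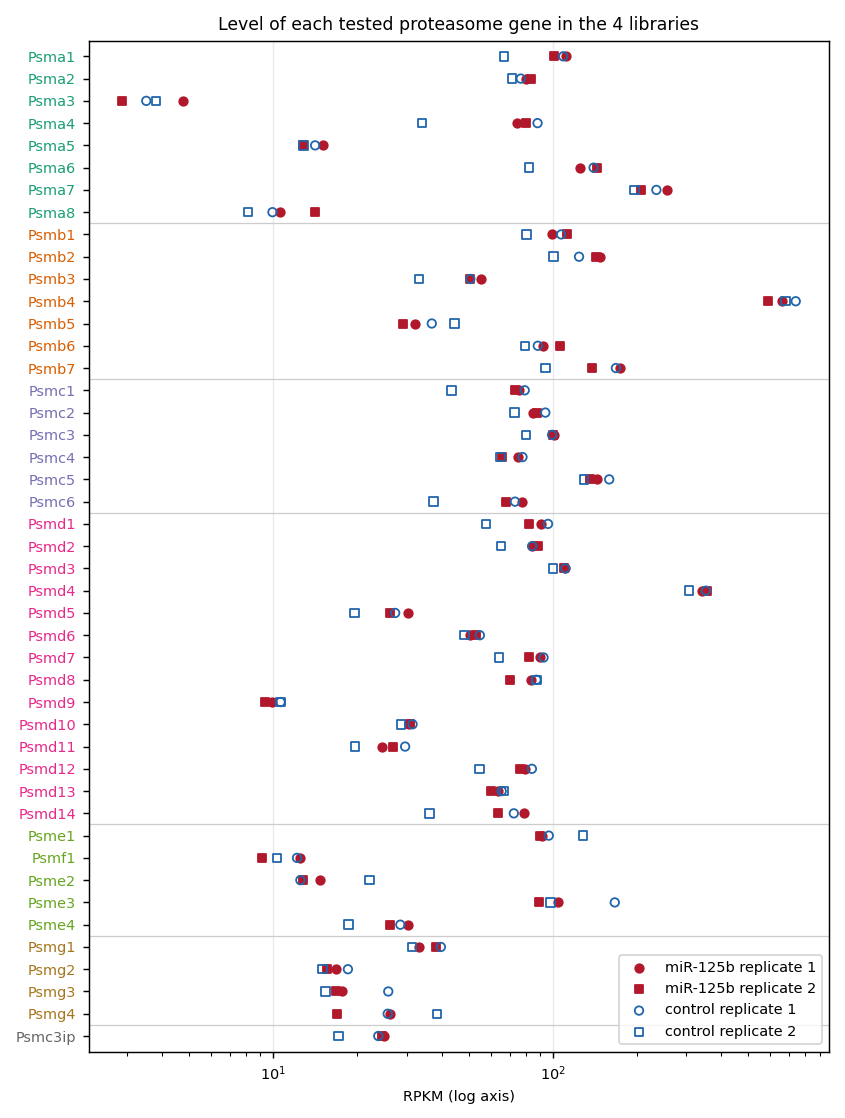
Level of each of the 45 tested genes (rows, coloured by role) in RPKM on a log axis, with filled red symbols for the miR-125b libraries and open blue symbols for the control libraries. Most rows hold their 4 symbols close together, and the open square of control replicate 2 is the lowest in 32 of the 44 rows without Psmc3ip.

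No proteasome gene passed the test between miR-125b and control cells. In limma's test on log2(RPKM + 1), adjusted by Benjamini and Hochberg over all 10309 tested genes, 0 proteasome genes were called, and 0 genes of any kind (0%). An unadjusted p under 0.05 was reached by 963 genes (9.34%), with 427 higher and 536 lower in miR-125b cells, and 0 of them were proteasome genes. When the recovered reads were fitted with limma-voom in its place, 0 genes were called, and 454 higher and 545 lower genes had an unadjusted p under 0.05, again with 0 proteasome genes. The smallest unadjusted p of a member was 0.0859, that of Psmb5, and the smallest adjusted p was 0.569. The log2 fold change was positive in 30 of the 44 proteasome genes (68.2%), against 52.8% of all tested genes, and its median was 0.083, against 0.024 over all tested genes.

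The differences were small, and their median size was close to that over all tested genes. Only Psmg4 of the 44 had a log2 fold change of at least 0.5 in either direction (2.27%), against 12.7% of all tested genes. None reached 1, against 1.91% of all tested genes. The median absolute log2 fold change was 0.192 in proteasome genes and 0.204 over all tested genes. The 95% interval of the log2 fold change stayed within 1 in either direction for 36 of 44 (81.8%), against 81.4% of all tested genes. A change of that size was thus outside the interval for most members, as it was for most tested genes. The groups did not overlap with miR-125b above control in 6 of the 44, against 22.3% of all tested genes, and with miR-125b below control in 6, against 20.4%. The first 6 were Psma2, Psma8, Psmb2, Psmb6, Psmc3 and Psmd2, and the other 6 were Psmb4, Psmb5, Psmd8, Psmd9, Psmd13 and Psme1.

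**Figure D2:**
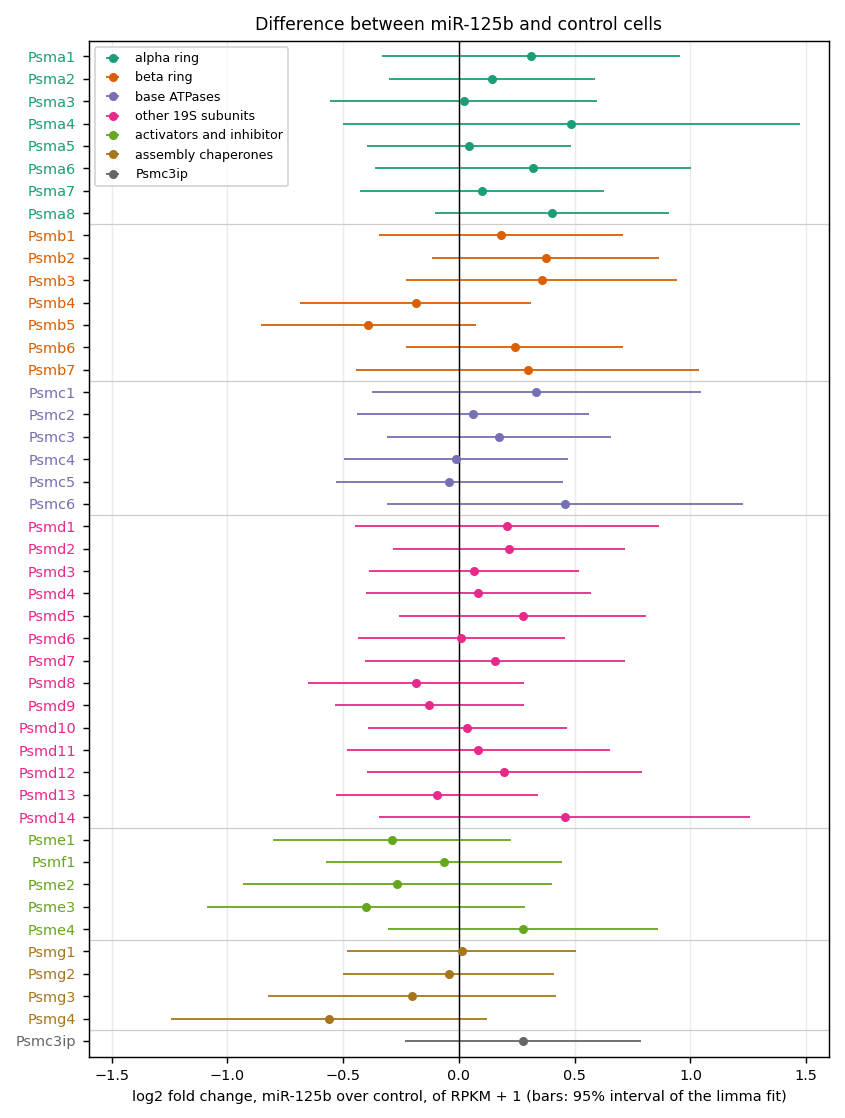
Log2 fold change of RPKM + 1, miR-125b over control, of the 45 tested genes, with the 95% interval of the limma fit as bars and colours by role. All bars cross 0, and the points lie between -0.56 (Psmg4) and 0.48 (Psma4).

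Many proteasome genes were lowest in control replicate 2, the library that stood apart. Its value was the lowest of the 4 libraries in 32 of the 44 genes (72.7%), against 36.9% of all tested genes and 41.4% of 2224 tested genes of like level. The median ratio of control replicate 2 to control replicate 1 was 0.811, against 0.987 over all tested genes, and it ranged from 0.387 for Psma4 to 1.77 for Psme2. Without control replicate 2, the log2 fold change was positive in 10 of the 44 (22.7%), against 48.8% of all tested genes, and its median was -0.081. The positive median of the full data therefore turned negative without that library. Across the 44 genes the ratio of the control libraries had a Spearman's rho of 0.416 with transcript GC content, a description over genes that share these libraries. With the GC trend removed, 26 of the 44 (59.1%) had a positive log2 fold change, against 50.1% of all genes in that fit. The median was 0.048, against 0.0008 over all genes in that fit.

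Leaving out the other control library gave the opposite picture. Without control replicate 1, 15 of the 44 proteasome genes were higher with miR-125b at an unadjusted p under 0.05 (34.1%), against 15.2% of all tested genes, and 4 were lower (9.09%), against 13.99% of all tested genes, with a smallest adjusted p of 0.0779 in limma. The 4 lower genes were Psmb5, Psme1, Psme2 and Psmg4. Without control replicate 2, 0 were higher, against 5.90% of all tested genes, and 2 were lower (4.55%), against 5.47%. The 2 were Psme3 at a log2 fold change of -0.78 (adjusted p 0.321) and Psmg3 at -0.56 (adjusted p 0.365). No member was called in either fit, and each rests on a lone control library that is assumed to vary like the miR-125b libraries.

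**Figure D3:**
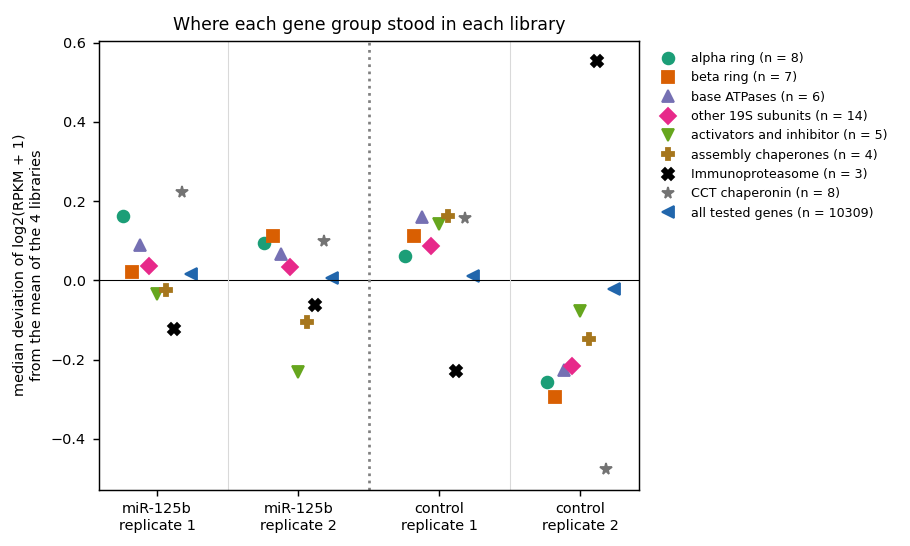
Median deviation of log2(RPKM + 1) from the mean of the 4 libraries for each role group of proteasome genes, for the immunoproteasome and CCT chaperonin genes, and for all tested genes, by library. In control replicate 2 the core and regulatory particle groups lie between -0.29 and -0.22 and the chaperonin genes at -0.48, while the immunoproteasome genes lie at 0.55.

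The alpha ring, which closes the barrel until a cap opens it, had positive log2 fold changes in 8 of 8 genes, with a median of 0.23 and none past the test. Psma4 (chromosome 9, 54798666 to 54805837 in mm9, 9 exons) had the highest, with 74.7 and 80.01 RPKM in miR-125b and 88.2 and 34.1 RPKM in control libraries. Control replicate 1 was the highest and control replicate 2 the lowest of the 4 libraries, so the groups overlapped. The log2 fold change was 0.48 ± 0.41 (SE; limma adjusted p 0.711) and -0.19 without control replicate 2. Psma8 encodes a testis-specific counterpart of Psma7. It had 10.6 and 14.1 RPKM in miR-125b and 9.94 and 8.14 RPKM in control libraries, and here both miR-125b values lay above both control values. Its log2 fold change was 0.40 ± 0.21 (SE; limma adjusted p 0.583) and 0.27 without control replicate 2. It lay between 0.21 and 0.59 when each library was left out in turn. The other alpha genes Psma1, Psma2, Psma5, Psma6 and Psma7 had log2 fold changes of 0.31, 0.14, 0.045, 0.32 and 0.10, and without control replicate 2 of -0.036, 0.091, -0.020, -0.062 and -0.029 in that order. Among them only Psma2 had groups that did not overlap, with 79.9 and 83.9 RPKM in miR-125b and 76.8 and 71.4 RPKM in control libraries. Without control replicate 2 the median of the alpha ring was -0.025.

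Psma3, an alpha subunit that every core particle contains, was the least abundant tested member. It had 4.75 and 2.88 RPKM in miR-125b and 3.52 and 3.81 RPKM in control libraries, and its log2 fold change of 0.021 ± 0.24 (SE; limma adjusted p 0.977; 0.065 without control replicate 2) turned negative with other scalings (-0.0035 with quantile normalization, -0.13 with the GC correction). The miR-125b libraries held both the highest and the lowest value. For each gene, the coding transcript of GENCODE M21 nearest in length to the deposited one was scanned for shared sequence. For Psma3 it had 859 bases, against 1418 in the deposited transcript. Of its 30-base windows, 79.0% also occur in transcripts of another gene, in its case processed pseudogenes. The labels leave unstated how reads with several matches were counted, so the level of such a gene is uncertain.

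The same limit touches other members. The share of windows found in another gene was 74.7% in Psmb5, 67.3% in Psmb3, 67.1% in Psma5 and 66.6% in Psme2 (shared with Psme2b). It was 49.0% in Psmd11, 47.5% in Psma4, 46.6% in Psmd2 and 41.1% in Psmc1. Psme1 had a share of 24.7%, with processed pseudogenes, and Psmg3 one of 24.5%, with the coding gene Gm26938. The 13 tested members with a share of at least 20% had a median level of 35.7 RPKM, against 79.8 RPKM in the 32 with less. Across the 45 genes Spearman's rho of share and level was -0.281, given as a description, and the part of shared sequence in the levels was not tested. Psmb7 is partly covered by transcripts annotated to its neighbour Nek6 (31.1% of windows), and Psmc3ip by those of Mlx (28.2%), and no source at hand states that reads were counted by strand. Psmd2, Psmd10, Psme2 and Psmg4 had more than 1 deposited transcript. The 21 members with no shared window had a median log2 fold change of 0.060, with 14 of 21 positive, and -0.079 without control replicate 2. Among these 21, Psmd5 was scanned on a transcript of only 555 bases, against 2042 in the deposited one.

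**Figure D4:**
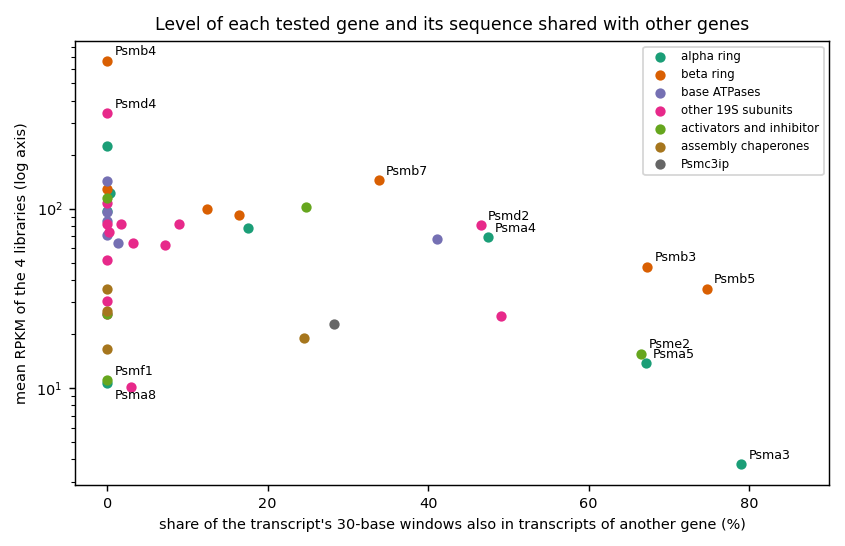
Mean RPKM over the 4 libraries (log axis) of each tested gene against the share of its 30-base windows that also occur in transcripts of another gene, in percent, coloured by role. Psma3 lies at 79.0% and 3.74 RPKM at the lower right, and the 2 most abundant genes, Psmb4 and Psmd4, lie at a share of 0%.

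The beta ring held 8 genes, of which 7 were tested. Of these, 5 had a positive and 2 a negative log2 fold change, with a median of 0.24 (-0.021 without control replicate 2), and none passed the test. Psmb2, a structural subunit (chromosome 4, 126354887 to 126386959 in mm9), had the highest, with 147.5 and 142.5 RPKM in miR-125b and 124.1 and 100.5 RPKM in control libraries. The groups did not overlap, and the log2 fold change was 0.37 ± 0.20 (SE; limma adjusted p 0.597) and 0.22 without control replicate 2. Psmb4, which stood below control in both miR-125b libraries, had a log2 fold change of -0.19 ± 0.21 (SE; limma adjusted p 0.766) and -0.25 without control replicate 2. The structural subunits Psmb1 and Psmb3 had log2 fold changes of 0.18 and 0.36 (-0.021 and 0.060 without control replicate 2), with groups that overlapped. Psmb11 encodes the beta subunit of the thymoproteasome, which cortical thymic epithelial cells use. It had 1 read in miR-125b replicate 1 and 0 in the other libraries, and no fold change is given.

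Among the 3 proteolytic subunits, Psmb5 was lower in value with miR-125b and Psmb6 and Psmb7 were higher, none past the test. Psmb5, the chymotrypsin-like subunit (chromosome 14, 55232957 to 55236832 in mm9, 3 exons), had 32.2 and 29.2 RPKM in miR-125b and 36.9 and 44.5 RPKM in control libraries. The groups did not overlap, and control replicate 2 was here the highest library. The log2 fold change was -0.39 ± 0.19 (SE; limma adjusted p 0.569) and -0.26 without control replicate 2. It lay between -0.52 and -0.26 when each library was left out in turn. Psmb6, the caspase-like subunit, had 92.5 and 106.4 RPKM in miR-125b and 88.4 and 79.4 RPKM in control libraries, with a log2 fold change of 0.24 ± 0.20 (SE; limma adjusted p 0.701; 0.16 without control replicate 2) and groups that did not overlap. Psmb7, the trypsin-like subunit, had 174.4 and 137.6 RPKM in miR-125b and 168.1 and 94.2 RPKM in control libraries, where the groups overlapped. Its log2 fold change of 0.30 ± 0.31 (SE; limma adjusted p 0.755) was -0.12 without control replicate 2.

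The immunoproteasome subunits that replace them were all 3 highest in control replicate 2, as were 31.9% of all tested genes. Psmb8, which takes the place of Psmb5, had 177.5 and 179.9 RPKM in miR-125b and 160.3 and 243.4 RPKM in control libraries. Psmb9, the counterpart of Psmb6, had 54.1 and 63.4 RPKM in miR-125b and 44.7 and 101.5 RPKM in control libraries. Psmb10, the counterpart of Psmb7, had 46.3 and 35.2 RPKM in miR-125b and 53.5 and 74.6 RPKM in control libraries. For Psmb8 and Psmb9 the groups overlapped, and for Psmb10 both miR-125b values lay below both control values. The log2 fold changes were -0.14 for Psmb8, -0.20 for Psmb9 and -0.63 ± 0.25 (SE) for Psmb10, the only one of the 3 with an unadjusted p under 0.05 (limma adjusted p 0.509). Without control replicate 2 they were 0.16, 0.38 and -0.40 in the same order. Their median was -0.20, with 0.16 without control replicate 2 and -0.15 with the GC correction. The transcripts of these 3 genes had a median GC content of 55.8%, against 50.3% over all tested genes.

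Set against its standard counterpart, Psmb8 was the major form and Psmb10 the minor one. Psmb8 made up 84.6% and 86.1% of the summed RPKM of Psmb8 and Psmb5 in miR-125b libraries, against 81.3% and 84.6% in control libraries. Psmb9 made up 36.9% and 37.4% of the sum with Psmb6 in miR-125b libraries, against 33.6% and 56.1% in control libraries. Psmb10 made up 20.97% and 20.35% of the sum with Psmb7 in miR-125b libraries, against 24.1% and 44.2% in control libraries. The shares of Psmb9 and Psmb10 in control replicate 2 thus stood apart from the other 3 libraries, which lay close together. The share for Psmb8 rests on Psmb5, whose level is uncertain because of its pseudogenes. The share for Psmb10 rests on Psmb7, of whose windows 31.1% also lie in transcripts of Nek6. The share for Psmb9 rests on Psmb6, of whose windows 16.4% also lie in processed pseudogenes.

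**Figure D5:**
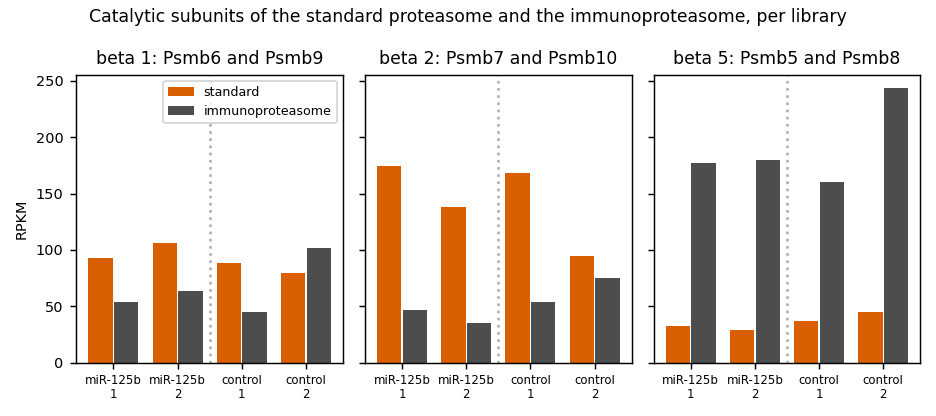
RPKM of each standard proteolytic subunit (orange) and its immunoproteasome counterpart (grey) in the 2 miR-125b and 2 control libraries. Psmb8 exceeds Psmb5 in every library, and Psmb9 exceeds Psmb6 only in control replicate 2, at 101.5 against 79.4 RPKM.

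The 6 ATPases of the base had log2 fold changes with a median of 0.12, of which 4 were positive and 2 negative, and all 6 were lowest in control replicate 2. Psmc6 had the highest, with 77.4 and 67.8 RPKM in miR-125b and 73.2 and 37.5 RPKM in control libraries. Control replicate 2 was the low library, the groups overlapped, and the log2 fold change was 0.46 ± 0.32 (SE; limma adjusted p 0.664) and -0.015 without that library. Psmc5 had the lowest, with 143.3 and 135.7 RPKM in miR-125b and 159.1 and 129.5 RPKM in control libraries and a log2 fold change of -0.041 ± 0.21 (SE; limma adjusted p 0.948), or -0.19 without control replicate 2. Psmc1, whose 8mer match for miR-125b is shown above, had 75.5 and 73.1 RPKM in miR-125b and 79.3 and 43.4 RPKM in control libraries. Both miR-125b values lay between the control values, and the log2 fold change was 0.33 ± 0.30 (SE; limma adjusted p 0.719) and -0.094 without control replicate 2. Psmc2, Psmc3 and Psmc4 had log2 fold changes of 0.060, 0.17 and -0.013 (-0.12, 0.019 and -0.14 without control replicate 2), and only Psmc3 had groups that did not overlap, with 101.1 and 100.5 RPKM in miR-125b and 99.4 and 80.2 RPKM in control libraries. Psmc3ip, which is no subunit, had 24.8 and 24.5 RPKM in miR-125b and 23.8 and 17.1 RPKM in control libraries, with a log2 fold change of 0.28 ± 0.21 (SE; limma adjusted p 0.691) and 0.052 without control replicate 2. Without control replicate 2 the median of the ATPases was -0.11.

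The other 14 genes of the regulatory particle carry Psmd symbols and include scaffolds, ubiquitin receptors, the lid, and the base assembly chaperones Psmd5, Psmd9 and Psmd10. Their log2 fold changes were positive in 11 and negative in 3, with a median of 0.083 (-0.081 without control replicate 2), and none passed the test. Psmd14, the lid enzyme that removes ubiquitin chains from substrates, had the highest. It had 79.0 and 63.5 RPKM in miR-125b and 72.5 and 36.3 RPKM in control libraries, and control replicate 2 was again the low one. Its log2 fold change was 0.46 ± 0.34 (SE; limma adjusted p 0.675) and -0.033 without control replicate 2. Psmd8, a lid subunit, had the lowest, with 83.7 and 70.3 RPKM in miR-125b and 87.3 and 87.5 RPKM in control libraries. The groups did not overlap, and the log2 fold change was -0.19 ± 0.20 (SE; limma adjusted p 0.758) and -0.18 without control replicate 2. Psmd9 had 9.91 and 9.34 RPKM in miR-125b and 10.6 and 10.6 RPKM in control libraries, a log2 fold change of -0.13 ± 0.17 (SE; limma adjusted p 0.806) with or without control replicate 2. Psmd4, the ubiquitin receptor, had a log2 fold change of 0.083 and -0.017 without control replicate 2. Psmd2, a scaffold that binds ubiquitin shuttles, had 84.5 and 88.3 RPKM in miR-125b and 84.4 and 65.3 RPKM in control libraries, which left both miR-125b values just above control. Psmd13, a lid subunit, had 63.8 and 60.0 RPKM in miR-125b and 65.6 and 66.8 RPKM in control libraries, which left them just below. Their log2 fold changes were 0.22 and -0.096 (0.034 and -0.083 without control replicate 2). The remaining Psmd genes had overlapping groups and log2 fold changes between 0.010 (Psmd6) and 0.27 (Psmd5), and without control replicate 2 between -0.20 (Psmd11) and 0.043 (Psmd5). The 8 lid subunits taken alone had a median of 0.075, with 6 positive and 2 negative. Without control replicate 2 all 8 were negative, between -0.20 (Psmd11) and -0.0076 (Psmd3).

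The caps Psme1 to Psme4 and the inhibitor Psmf1 had 4 negative log2 fold changes of 5, with a median of -0.27 and none past the test. Without control replicate 2 the median was -0.088, and without control replicate 1 it was -0.021. Psme3, the nuclear cap PA28 gamma (chromosome 11, 101177565 to 101184844 in mm9, 11 exons), had the lowest, with 104.7 and 89.0 RPKM in miR-125b and 166.5 and 97.9 RPKM in control libraries. Here control replicate 1 was the high library, at 1.87 times the lowest, and the groups overlapped. The log2 fold change was -0.40 ± 0.29 (SE; limma adjusted p 0.670), with a range from -0.78 to -0.021 when each library was left out in turn. Psme1 and Psme2 form the interferon-inducible cap PA28. Psme1 had 91.8 and 90.1 RPKM in miR-125b and 96.7 and 127.9 RPKM in control libraries, and Psme2 had 14.8 and 12.7 RPKM in miR-125b and 12.5 and 22.1 RPKM in control libraries. Both were highest in control replicate 2, as the immunoproteasome subunits and 31.9% of all tested genes were. Psme1 and Psme2 had log2 fold changes of -0.29 and -0.27 (-0.088 and 0.12 without that library).

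Psme4, the cap PA200, had the only positive value among the caps, with 30.3 and 26.1 RPKM in miR-125b and 28.5 and 18.6 RPKM in control libraries. The groups overlapped, and the log2 fold change was 0.28 ± 0.24 (SE; limma adjusted p 0.718) and -0.017 without control replicate 2. Psmf1, the inhibitor PI31, carries an 8mer match for miR-125b. It had 12.5 and 9.12 RPKM in miR-125b and 12.2 and 10.3 RPKM in control libraries, where the miR-125b values enclosed the control values. Its log2 fold change was -0.065 ± 0.21 (SE; limma adjusted p 0.923) and -0.17 without control replicate 2.

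The 4 core assembly chaperones had a median log2 fold change of -0.12, with 1 positive and 3 negative, and of -0.23 without control replicate 2. Psmg4 had the lowest of all members, with 26.1 and 16.9 RPKM in miR-125b and 25.7 and 38.5 RPKM in control libraries. The first miR-125b library stood just above the first control library, so the groups overlapped, and the log2 fold change was -0.56 ± 0.29 (SE; limma adjusted p 0.579). Leaving out miR-125b replicate 2 gave -0.26 and leaving out control replicate 2 gave -0.28, while leaving out either replicate 1 gave -0.86 (miR-125b) and -0.84 (control). Its shorter deposited transcript had 27.1 and 17.8 RPKM in miR-125b and 28.9 and 41.5 RPKM in control libraries, and there the groups did not overlap. Psmg2 had a log2 fold change of -0.045, and -0.19 without control replicate 2. Psmg3, the last of the tested members with an 8mer match, had 17.7 and 16.8 RPKM in miR-125b and 25.8 and 15.4 RPKM in control libraries. Control replicate 1 was the high library there, and the log2 fold change was -0.20 ± 0.26 (SE; limma adjusted p 0.799), which was -0.56 without control replicate 2 and 0.15 without control replicate 1. Psmg1 had 33.1 and 38.2 RPKM in miR-125b and 39.8 and 31.3 RPKM in control libraries, with a log2 fold change of 0.012 ± 0.21 (SE; limma adjusted p 0.983) that was -0.0084 with median-of-ratios scaling and -0.16 without control replicate 2. Of the 3 tested members with an 8mer match for miR-125b, Psmc1, Psmf1 and Psmg3, none passed the test.

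Lists of neighbouring genes gave counts of the same kind, with 0 called in any. The 15 proteasome-associated genes had 7 positive and 8 negative log2 fold changes with a median of -0.094 (-0.061 without control replicate 2). The highest was that of the deubiquitinase Usp14 (33.9 and 31.1 RPKM in miR-125b and 33.9 and 17.5 RPKM in control libraries, log2 fold change 0.40, and -0.058 without control replicate 2) and the lowest that of Zfand5 (19.2 and 11.5 RPKM in miR-125b and 17.1 and 21.8 RPKM in control libraries, log2 fold change -0.35, and -0.18 without control replicate 2). For both genes the groups overlapped. The 15 genes of ubiquitin supply and shuttling had 8 positive and 7 negative log2 fold changes with a median of 0.023 (-0.0034 without control replicate 2). Uba6, a ubiquitin-activating enzyme, had the highest at 0.46 (0.27 without control replicate 2), with groups that did not overlap. None of these 15 and 15 genes had an unadjusted p under 0.05.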

How the data were processed

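RNA was measured by sequencing in 4 libraries, 2 per group, grouped and numbered by their titles. The authors deposited 1 table per library of 26982 RefSeq transcripts with RPKM values, with mm9 as the build in the submitters' processing notes. Aligner, counter and the handling of multiply matching reads are not stated in the sources at hand. Multiplying RPKM by exon length gave whole reads in 100% of rows (tolerance 0.001 reads). In a 1 kb transcript a read added between 0.0792 and 0.0964 RPKM.

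Tables were joined by transcript in Python 3.11.15 (pandas 2.3.3, SciPy 1.17.1). The longest transcript stood for each of 21506 genes, of which 3423 had more than 1 row. Genes with at least 1 RPKM in at least 2 libraries (10309) were fitted with limma 3.58.1 in R 4.3.3 on log2(RPKM + 1) with a trended prior, 2-sided, with the group as the only term. The fit had 2 residual and 4.62 prior degrees of freedom. It was also run on simulated data with independent noise for each gene. Those data held no shift shared across a library, so that run cannot show how the fit handles such a shift. Fold changes on this scale understate those of low genes. Adjusted p-values follow Benjamini and Hochberg over all tested genes, with a threshold of 0.05. All 45 tested members passed the filter in every library.

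Genes named with values are, by rule, members called or with an unadjusted p under 0.05, the highest and lowest log2 fold change of each role and list, the proteolytic subunits, members with a full seed match, Psmc3ip, members that failed the filter, and the 3 most and 3 least abundant. Any other member or gene of a list given with values was picked with its values in view. A gene that this rule names in a list is not reported here. The members and the lists (immunoproteasome, proteasome-associated, ubiquitin supply and shuttling, COP9 signalosome, CCT chaperonin) were chosen with earlier results of these data known. Of 19 and 16 symbols in the proteasome-associated and ubiquitin lists, 15 and 15 were found. Both lists give some genes under an older and a current symbol, so a symbol not found need not be a missing gene. GC content came from GENCODE M21 transcripts (GRCm38) for 99.4% of genes. Protein sequences are not used here.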

Additional observations from a re-analysis of the deposited data

How the results depend on the processing

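The count of 0 called proteasome genes held in all 17 alternatives (pseudocounts, filters, scalings, limma-voom, prior, shortest transcript, GC correction, replicate block, each library left out). Over all genes 0 were called, 12 with the replicate number as a block (replicate block), and between 0 and 91 with a library left out: leaving out miR-125b replicate 1 gave 91, miR-125b replicate 2 gave 25 and control replicate 2 gave 1. The labels do not say whether same-numbered libraries share a round of infection. Across tested genes, same-numbered libraries deviated from their group means at a correlation of 0.0217, which cannot settle whether a round was shared. The block changed no call among proteasome genes.

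In the 13 alternatives that leave out no library, 2 of 23 named members turned sign. Psma3 had a log2 fold change of -0.0035 with quantile normalization and -0.128 with the GC correction, alone or with the replicate block, and Psmg1 had -0.0084 with median-of-ratios scaling. The median of the proteasome-associated list was -0.0139 with the GC correction, alone or with the block. The cause was not tested.

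Leaving out each library in turn gave the following ranges of the median log2 fold change: -0.0811 to 0.212 over the proteasome genes, -0.0246 to 0.381 for the alpha ring, -0.021 to 0.384 for the beta ring, -0.107 to 0.283 for the ATPases, -0.0811 to 0.277 for the other regulatory subunits, -0.301 to -0.0208 for the caps and inhibitor, -0.233 to 0.124 for the assembly chaperones, -0.783 to 0.156 for the immunoproteasome, -0.0612 to 0.0631 for the proteasome-associated list, -0.0034 to 0.0747 for ubiquitin supply and shuttling, 0.0546 to 0.328 for COP9 and -0.0369 to 0.652 for CCT. At an unadjusted p under 0.05, between 0 and 15 proteasome genes were higher and between 0 and 4 lower, and between 10 and 34 had a positive log2 fold change. The sign turned in at least 1 of these fits in 28 of the 44 proteasome genes, and in 22 without control replicate 2. The named ones among them ranged from -0.262 to 0.303 (Psma3), -0.187 to 1.16 (Psma4), -0.0517 to 0.252 (Psma7), -0.117 to 0.712 (Psmb7), -0.0942 to 0.761 (Psmc1), -0.189 to 0.106 (Psmc5), -0.0153 to 0.933 (Psmc6), -0.0334 to 0.947 (Psmd14), -0.0173 to 0.183 (Psmd4), -0.0174 to 0.570 (Psme4), -0.271 to 0.141 (Psmf1), -0.156 to 0.18 (Psmg1) and -0.558 to 0.151 (Psmg3).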

Other observations

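The COP9 signalosome, which is built like the lid of the regulatory particle and removes Nedd8 from cullin ligases, had positive log2 fold changes in 6 of 9 genes, with a median of 0.16 (0.055 without control replicate 2). Control replicate 2 was the lowest library in 5 of the 9, and its median ratio to control replicate 1 was 0.960. Cops2 had the highest, with 32.1 and 29.9 RPKM in miR-125b and 29.8 and 15.4 RPKM in control libraries (log2 fold change 0.51, and 0.055 without control replicate 2), and the miR-125b values lay just above control replicate 1. Cops7b had the lowest, with 13.7 and 14.2 RPKM in miR-125b and 17.7 and 18.96 RPKM in control libraries (log2 fold change -0.37, and -0.32 without control replicate 2), and the groups did not overlap. In 5 of the 9 genes the miR-125b values lay above and in 3 below both control values, against 22.3% and 20.4% of all tested genes, and 0 had an unadjusted p under 0.05 in limma.

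The CCT chaperonin, which folds actin and tubulin, had positive log2 fold changes in 8 of 8 genes, with a median of 0.31, and all 8 were lowest in control replicate 2. Tcp1 had the highest, with 178.4 and 177.3 RPKM in miR-125b and 173.4 and 88.5 RPKM in control libraries (log2 fold change 0.52, and 0.036 without control replicate 2). Cct3 had the lowest, with 180.8 and 148.5 RPKM in miR-125b and 169.6 and 123.2 RPKM in control libraries (log2 fold change 0.18, and -0.050 without control replicate 2). The median ratio of control replicate 2 to control replicate 1 was 0.658, and without control replicate 2 the median log2 fold change was -0.037. No gene of the list had an unadjusted p under 0.05 in limma, and the part of that library in the positive values was not tested beyond leaving it out.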
